A study of Homo sapiens with 5 samples.

Results

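The insulin-like growth factor (IGF) genes of RH4 cells were examined after knock-down of circVAMP3. The genes were the ligand IGF2, the receptors IGF1R, IGF2R and INSR, the adaptors IRS1, IRS2 and IRS4, and the binding proteins IGFBP2, IGFBP4 and IGFBP5. They were chosen by name, and 8 of the 10 had a row in the gene table, which held 13822 genes in all. IRS4 and IGFBP4 had no row and were not analysed here. RH4 is an established cell line of alveolar rhabdomyosarcoma, a tumour of the skeletal muscle lineage. Transfection used Dharmafect-1 and 30 nM siRNA, with fresh medium given at 24 h and RNA taken 24 h later. The control group was si-SCR, a scrambled siRNA (3 libraries), and the knock-down group was si-circVAMP3, an siRNA against the junction that closes the circular RNA (2 libraries). Poly-A+ RNA was sequenced in stranded libraries, which the authors called biological replicates, and gene levels were given as FPKM, a level per gene length and depth.

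IGF2 is a secreted growth factor that signals mainly by binding IGF1R, and also a short isoform of the insulin receptor INSR. IGF2R, also known as the cation-independent mannose 6-phosphate receptor, takes IGF2 up for breakdown without signalling through a kinase. Activated IGF1R and INSR dock the IRS adaptors, which recruit PI3K and so turn on AKT, while the IGFBP proteins bind IGF2 outside the cell. Rhabdomyosarcoma is known for abundant IGF2, and the PAX3-FOXO1 fusion of the alveolar type is known to raise IGF1R.

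The recovered read totals over the listed genes were 26064850, 24694435 and 24583875 in si-SCR replicates 1 to 3, and 18358442 and 28401864 in si-circVAMP3 replicates 1 and 2. The shallowest and the deepest library were thus both in the knock-down group.

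VAMP3, the gene that hosts circVAMP3, lies at chr1:7771296-7781432 on the plus strand of GRCh38. In the annotation, exon 3 (chr1:7777160-7777318, 159 bases) and exon 4 (chr1:7778118-7778169, 52 bases) of its canonical transcript make a circle of 211 bases when the end of exon 4 is joined to the start of exon 3. The siRNA is shown because the same letters are followed through the IGF genes further on. Its 19 paired bases held 8 bases from the end of exon 4, in lower case, and 11 from the start of exon 3, in capitals.
si-circVAMP3 target strand: caucaucgGUGGUGGACAU
The longest run of these letters in the linear VAMP3 transcript was 12 bases. Poly-A+ libraries do not measure a circle without a tail, so these data hold no check of circVAMP3 itself. Linear VAMP3 was at 36.4, 35.4 and 37.4 FPKM in si-SCR and at 29.4 and 30.2 FPKM in si-circVAMP3. Both knock-down libraries lay below every control library. VAMP3 fell by 0.29 on the log2 scale (SE 0.043; limma, Benjamini-Hochberg adjusted p = 0.005), and the adjusted p ranged from 0.0056 to 0.051 when each library was left out in turn, the highest value being without si-circVAMP3 replicate 1.

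The muscle tumour label was checked against marker genes. DES, a muscle filament, was at 277 ± 24.3 FPKM in si-SCR (SD, n = 3) and 257 ± 12.5 in si-circVAMP3 (SD, n = 2), and FGFR4, a receptor abundant in this tumour, at 229 ± 28.7 and 190 ± 9.89. The myogenic factor MYOD1 was at 102 ± 15.7 and 116 ± 14.8 FPKM. MYCN was lower, at 19.9 ± 1.04 and 19.1 ± 0.346 FPKM. CDH3, the lowest of the 7 markers, was at only 1.05 ± 0.0833 and 0.910 ± 0.0186 FPKM. All 7 muscle and tumour markers had rows, and their summed level was 949, 932 and 801 FPKM in si-SCR against 757 and 763 FPKM in si-circVAMP3. Among them 2 of 7 fell: MYOG, a factor of muscle differentiation, by 0.76 (limma adjusted p = 0.0016), and CHRND, a subunit of the acetylcholine receptor, by 0.31 (limma adjusted p = 0.010). Markers of other cells were few. No leukocyte or liver marker of the 2 lists had a row, the endothelial PECAM1 stayed between 0.0777 and 0.153 FPKM, and EPCAM, CDH1, KRT18, CDH5 and LUM had no row. The 3 fibroblast markers with a row summed to 34.7, 32.1 and 32.5 FPKM in si-SCR and 30.4 and 28.1 FPKM in si-circVAMP3, nearly all of it COL3A1. KRT8, the 1 epithelial marker with a row, was at 0.316, 0.215 and 0.256 FPKM in si-SCR and 0.65 and 0.58 FPKM in si-circVAMP3. KRT8 rose by 0.55 on the log2 scale (limma adjusted p = 0.0083) at a level under 1 FPKM, where the pseudocount weighs on the value: it was 0.99 with a pseudocount of 0.1 and 1.22 with limma voom on recovered reads. The part of these marker differences in the results for the IGF genes was not tested.

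Over all genes, limma on log2(FPKM + 0.5) tested the 12423 genes with at least 0.5 FPKM in at least 2 libraries and called 3756 of them at an adjusted p under 0.05, which is 30.2%. Of the IGF genes, 7 passed the filter and 3 of the 7 were called: IGF1R and IGF2R rose and IRS1 fell. With so few genes, this count does not stand apart from that share. Over all genes tested, 14.4% were called higher and 15.8% lower. The groups did not overlap for 5 of the 7 IGF genes and for 58.4% of all genes tested. The median log2 fold change was -0.0037 over the 7 genes and 0.0065 over all genes tested. In this fit no IGF gene was called with an absolute log2 fold change over 0.58, a rule that 3.76% of all genes passed. With limma voom on recovered reads IGFBP5 was called at -0.96 and so passed it. In bulk samples, fewer cells that express a gene and less RNA per cell cannot be told apart.

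Levels per gene length fell into a wide order. In si-SCR the order of mean FPKM was IGFBP2 (62.4), IGF2 (38.0), IGF2R (19.5), IRS1 (15.7), IGF1R (14.0), IGFBP5 (1.55), INSR (0.951) and IRS2 (0.116). The lowest IRS1 library and the highest IGF1R library of si-SCR were both at 14.4 FPKM, so these neighbours hardly differed beyond their spread. In si-circVAMP3 IGF1R stood above IRS1 and the mean of INSR above that of IGFBP5, whose libraries overlapped with it, and the other genes held their places.

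**Figure D1:**
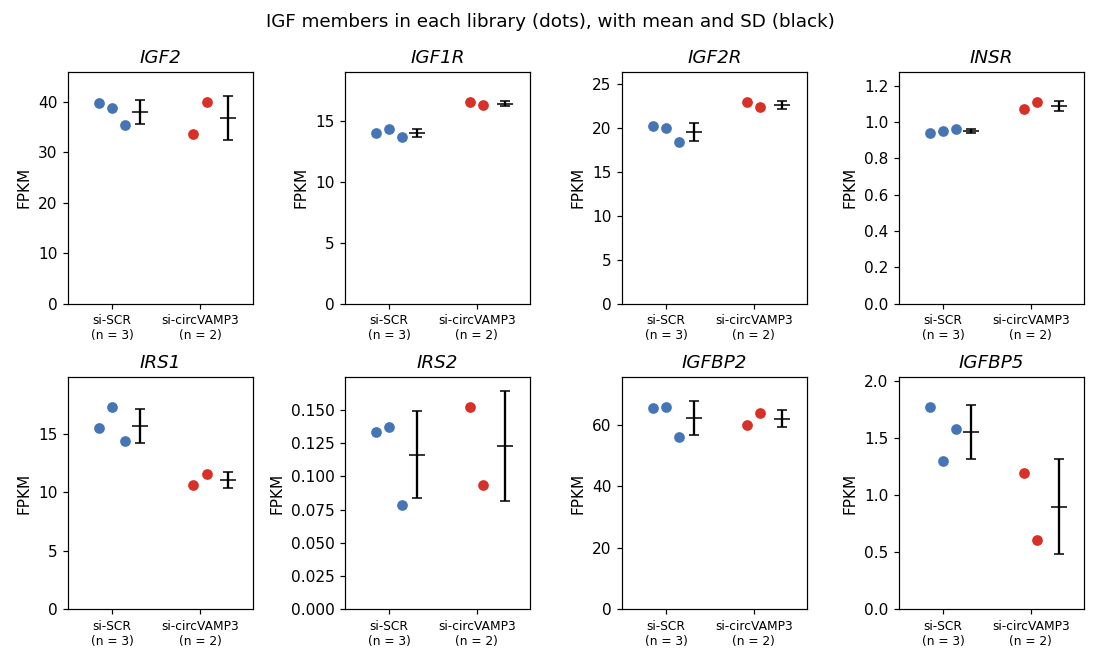
FPKM (vertical axis, from 0, with its own scale for each gene) of the 8 IGF genes in each library, with si-SCR in blue (n = 3), si-circVAMP3 in red (n = 2) and the group mean and SD in black. IGF1R, IGF2R and INSR are higher and IRS1 and IGFBP5 lower in both knock-down libraries, while IGF2, IRS2 and IGFBP2 overlap between the groups.

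The ligand IGF2 (ENSG00000167244; chr11:2129112-2158391, minus strand) was at 39.8, 38.9 and 35.4 FPKM in si-SCR, from 6643, 6087 and 5525 reads. In si-circVAMP3 it was at 33.7 and 40.0 FPKM, from 3915 and 7207 reads. The knock-down libraries held both the lowest and the highest value, and the groups overlapped throughout. IGF2 had a log2 fold change of -0.05 (95% interval -0.25 to 0.15; limma adjusted p = 0.70). Without si-circVAMP3 replicate 1 the estimate was 0.07. In the annotation used here, 1460 of the 7146 exonic bases of IGF2 also belong to the read-through gene INS-IGF2 on the same strand, among them all 540 coding bases. Reads that fit several genes are dropped by the counting used, so the IGF2 level may rest on its untranslated exons and can be too low for the gene as a whole.

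The receptor IGF1R (ENSG00000140443; chr15:98648539-98964530, plus strand), the tyrosine kinase through which IGF2 mainly signals, was at 14.0, 14.4 and 13.7 FPKM in si-SCR and at 16.6 and 16.3 FPKM in si-circVAMP3. Both knock-down libraries lay above every control library, and within each group the values were close. IGF1R rose by a log2 fold change of 0.22 (95% interval 0.11 to 0.33), a fold of 1.17, with an adjusted p of 0.013 by limma with Benjamini-Hochberg adjustment. The call was lost without si-circVAMP3 replicate 1 (adjusted p = 0.095) or replicate 2 (adjusted p = 0.077), where limma assumed that the lone knock-down library varied like the controls, and the estimate then was 0.21 or 0.23.

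IGF2R (ENSG00000197081; chr6:159969082-160113507, plus strand), the receptor that clears IGF2, was at 20.2, 19.9 and 18.3 FPKM in si-SCR and at 22.9 and 22.3 FPKM in si-circVAMP3. Again both knock-down libraries were above all controls, and the lowest value belonged to the third control. IGF2R rose by 0.21 on the log2 scale (95% interval 0.08 to 0.34; limma adjusted p = 0.030). This call was the less firm of the receptor calls: the limma adjusted p was 0.068 without si-SCR replicate 2, 0.16 without si-circVAMP3 replicate 1, 0.11 without si-circVAMP3 replicate 2 and 0.053 with limma without a trend.

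INSR (ENSG00000171105; chr19:7112255-7294414, minus strand), the insulin receptor, was at 0.942, 0.949 and 0.962 FPKM in si-SCR and at 1.07 and 1.11 FPKM in si-circVAMP3. The groups were apart and the controls nearly equal, at a level far under that of IGF1R on the FPKM scale. INSR had 272, 257 and 260 reads in si-SCR and 215 and 346 in si-circVAMP3. Its log2 fold change of 0.13 (95% interval -0.05 to 0.31) was not called (limma adjusted p = 0.22), and the pseudocount of 0.5 shrinks the change of a gene at this level. The log2 ratio of the group means without a pseudocount was 0.20.

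The promoters of IGF1R, IGF2R and IRS1, the called genes, are shown from 250 bases before to 50 bases after the gene start (RefSeq, GRCh38.p14), with GGGCGG and its reverse complement CCGCCC, the core letters of a GC box, in capitals. The lines give IGF1R at chr15:98648289-98648588 (plus strand), IGF2R at chr6:159968832-159969131 (plus strand) and IRS1 at chr2:226799771-226800070 (minus strand).
IGF1R: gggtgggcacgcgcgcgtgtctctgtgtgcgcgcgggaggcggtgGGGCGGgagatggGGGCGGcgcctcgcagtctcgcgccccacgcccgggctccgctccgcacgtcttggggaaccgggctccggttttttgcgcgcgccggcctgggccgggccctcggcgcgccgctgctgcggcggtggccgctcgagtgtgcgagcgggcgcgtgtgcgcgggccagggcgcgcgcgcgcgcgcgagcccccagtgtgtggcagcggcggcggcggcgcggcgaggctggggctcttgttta
IGF2R: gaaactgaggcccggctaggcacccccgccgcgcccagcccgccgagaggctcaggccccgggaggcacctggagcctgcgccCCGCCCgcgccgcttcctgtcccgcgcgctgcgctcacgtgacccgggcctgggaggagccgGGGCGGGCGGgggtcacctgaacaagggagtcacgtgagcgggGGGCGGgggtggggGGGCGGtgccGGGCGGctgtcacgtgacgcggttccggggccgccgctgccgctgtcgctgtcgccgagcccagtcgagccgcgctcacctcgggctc
IRS1: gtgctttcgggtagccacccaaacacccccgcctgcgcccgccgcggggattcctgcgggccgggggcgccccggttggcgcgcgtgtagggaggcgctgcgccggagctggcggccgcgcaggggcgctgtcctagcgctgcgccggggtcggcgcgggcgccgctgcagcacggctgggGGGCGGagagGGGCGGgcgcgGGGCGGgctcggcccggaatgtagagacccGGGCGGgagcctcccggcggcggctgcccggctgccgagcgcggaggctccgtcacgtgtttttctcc
The letters GGGCGG occurred 2 times in IGF1R, 5 times in IGF2R and 4 times in IRS1, and CCGCCC 1 time, in IGF2R. Both the genes that rose and the gene that fell thus held them, as did 45.0% of the 35116 promoters in the table. INSR held GGGCGG 4 times and was not called, and IGFBP5 held neither. GC content was 79.7% in IGF1R, 78.7% in IGF2R and 79.3% in IRS1, against a median of 58.7% over all promoters, but it was also 78.3% in INSR, which was not called, and 75.7% in IRS2, which was not tested. The letters GTAAACA and TGTTTAC, the core of a forkhead site, were in none of the IGF promoters in the table and in 3.42% of all promoters. These are matches of letters only. The table had no IGF2 promoter under that symbol.

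The adaptor IRS1 (ENSG00000169047; chr2:226731312-226799820, minus strand), which couples the receptors to PI3K, was at 15.5, 17.3 and 14.4 FPKM in si-SCR, from 4114, 4302 and 3579 reads. In si-circVAMP3 it was at 10.6 and 11.6 FPKM, from 1956 and 3320 reads. Every knock-down library was below every control. IRS1 fell by 0.48 on the log2 scale (95% interval -0.68 to -0.29), a fold of 0.715, with an adjusted p of 0.0075 (limma, Benjamini-Hochberg). This was the smallest p among the IGF genes. Without si-circVAMP3 replicate 1 the limma adjusted p was 0.066 with an estimate of -0.42, and it was under 0.05 without any other single library.

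IRS2 (ENSG00000185950; chr13:109752695-109786583, minus strand), the other widely expressed adaptor, was at 0.133, 0.137 and 0.0786 FPKM in si-SCR and at 0.152 and 0.0937 FPKM in si-circVAMP3. These levels came from 29, 28 and 16 reads in si-SCR and 23 and 22 reads in si-circVAMP3. The groups overlapped, and the gene was under the filter and not tested. Whether a moderate change of IRS2 could be detected at this depth was not tested. With IRS4 without a row, IRS1 was the adaptor that carried nearly all of the measured IRS mRNA on the FPKM scale.

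The binding protein IGFBP2 (ENSG00000115457; chr2:216632828-216664436, plus strand) was the most abundant of the IGF genes, at 65.4, 65.8 and 56.0 FPKM in si-SCR and 60.2 and 64.0 FPKM in si-circVAMP3. Both knock-down values fell inside the range of the controls. Its log2 fold change was -0.0037 (95% interval -0.19 to 0.18; limma adjusted p = 0.98).

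IGFBP5 (ENSG00000115461; chr2:216672105-216695549, minus strand), a binding protein of the muscle lineage, is the neighbour of IGFBP2 on chromosome 2 and points the other way. It was at 1.77, 1.30 and 1.58 FPKM in si-SCR and at 1.19 and 0.601 FPKM in si-circVAMP3, from 305, 210, 255, 143 and 112 reads. The groups were apart, but narrowly, since the higher knock-down library lay just under the lowest control, and the knock-down libraries differed widely from each other. The log2 fold change of -0.58 (95% interval -1.03 to -0.13) was not called (limma adjusted p = 0.060). Without si-circVAMP3 replicate 1 it was -0.89 and without replicate 2 it was -0.27, with limma adjusted p of 0.030 and 0.29. With limma voom on whole reads recovered from the FPKM values, which was chosen after seeing the data, it was -0.96 with an adjusted p of 0.018. Over all alternatives the adjusted p ranged from 0.018 to 0.29.

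**Figure D2:**
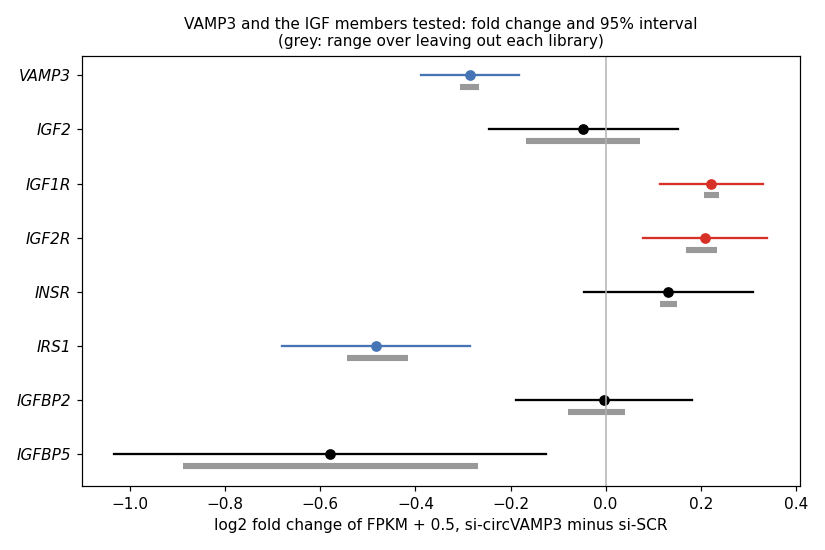
Log2 fold change (horizontal axis, si-circVAMP3 minus si-SCR) with its 95% interval for VAMP3 and the 7 IGF genes tested, in red or blue where called higher or lower and in black where not called, with the range over leaving out each library as a grey bar. IGF1R at 0.22 and IGF2R at 0.21 lie to the right of 0, IRS1 at -0.48 to the left, and the IGFBP5 bar spans -0.89 to -0.27.

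Ratios of 2 genes within a library do not depend on a single scaling factor per library, though quantile normalization can move them. With 3 against 2 libraries the exact two-sided permutation test over 10 arrangements cannot go under p = 0.1, so no ratio could pass. The ratio of IGF2 to IGF1R was 2.84, 2.71 and 2.58 in si-SCR and 2.04 and 2.45 in si-circVAMP3. Every knock-down library had less IGF2 mRNA relative to IGF1R mRNA, on the FPKM scale, than every control. Proteins were not measured in these libraries. The mean log2 ratio was lower by a difference of -0.28 (exact permutation p = 0.1, adjusted over 6 ratios 0.3). IGF2 to IGF2R behaved alike, at 1.97, 1.95 and 1.93 in si-SCR and 1.47 and 1.79 in si-circVAMP3, a difference of -0.26 (exact permutation p = 0.1, adjusted 0.3). Both differences rested largely on si-circVAMP3 replicate 1: without it they were -0.14 to IGF1R and -0.12 to IGF2R, and without replicate 2 they were -0.41 and -0.40. IGF2R to IGF1R stayed between 1.34 and 1.44 in every library, a difference of -0.01 (exact permutation p = 0.7, adjusted 0.7). The controls alone spanned this range, and the receptors were called at similar changes, so this ratio adds no separate result. The ratio of INSR to IGF1R lay between 0.0646 and 0.0702, that of IRS2 to IRS1 between 0.00546 and 0.0143 and that of IGFBP5 to IGFBP2 between 0.00939 and 0.0282, each with overlapping groups. The ratios with IRS4 and IGFBP4 were not computed.

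The 3 genes whose centred log2 profile over the 5 libraries lay nearest to that of IGF2 were NAIF1, QDPR and CD83, with root mean square differences of 0.016, 0.017 and 0.023. For IRS1 the nearest were TSPAN11, XYLT2 and MTA1-DT, at 0.036, 0.039 and 0.039. TSPAN11 lay near the filter, at 0.555 FPKM in si-SCR and 0.283 FPKM in si-circVAMP3 on average, so its likeness to IRS1 depends on the pseudocount. The profiles include the group difference, so the changes of these 6 genes follow from how they were chosen. Levels and ranges given for some of them are description only and not results.

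Genes around the IGF genes were grouped in 7 lists. Of 130 genes, 102 were tested and 34 were called, which is 33.3% against 30.2% of all genes, with 15 higher and 19 lower. The counts of single lists below, of 2 to 26 tested genes, stand against the same 30.2%. Of all genes tested, 14.4% were called higher and 15.8% lower. No list was tested as a set. Of the 36 called genes named here besides the IGF genes and the genes chosen by profile (VAMP3, markers and list genes), 10 were called without either si-circVAMP3 library: AKT1, IGF2BP2, TXNIP, SOCS3, SHC1, STC1, GRB10, PIK3CA, VPS29 and MYOG. The call of 25 others was lost without at least 1 of these libraries, and their higher adjusted p of the 2 by limma was between 0.051 for VAMP3 and 0.19 for SORT1. KRT8 fell under the filter when a si-circVAMP3 library was left out. The calls of SOS2, PIK3R3, AKT2, FOXO1, SESN1, CDKN1B and SORT1 were also lost without si-SCR replicate 2 (limma adjusted p = 0.069 to 0.092), and those of PIK3R3, SESN1, CDKN1B and SORT1 without si-SCR replicate 1 (limma adjusted p = 0.053 to 0.061).

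**Figure D3:**
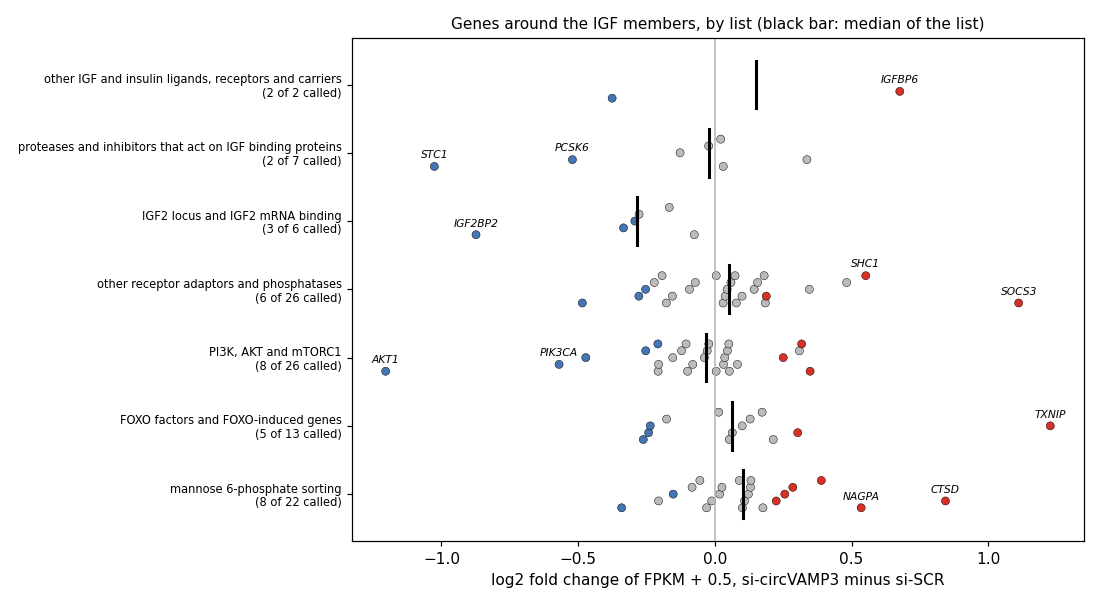
Log2 fold change (horizontal axis, si-circVAMP3 minus si-SCR) of the 102 tested genes in 7 lists, in red or blue where called higher or lower, in grey where not called, with the median of each list as a black bar and names for called genes past 0.5 in size. AKT1 at -1.20 and STC1 at -1.03 lie farthest to the left, TXNIP at 1.23 and SOCS3 at 1.11 farthest to the right.

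Other ligands and carriers were mostly without a row: 2 of 10 were measured and both were called. IGFBP6, a binding protein that prefers IGF2, was at 7.16, 8.29 and 6.13 FPKM in si-SCR and at 11.0 and 12.5 FPKM in si-circVAMP3. Both knock-down libraries were above all controls. IGFBP6 rose by 0.68 on the log2 scale (limma adjusted p = 0.0081), while IGFBPL1, an IGFBP-like gene, fell by 0.38 (limma adjusted p = 0.0061). Among the proteases and inhibitors that act on binding proteins, 2 of 7 tested genes were called, both lower, and the median was -0.02. STC1, a stanniocalcin that inhibits the protease PAPPA, fell by 1.03 from 2.72 ± 0.225 to 1.10 ± 0.396 FPKM (SD, 3 and 2 libraries; limma adjusted p = 0.0047), and the convertase gene PCSK6 by 0.52 (limma adjusted p = 0.011). STC2, the relative of STC1, was far more abundant, at 123 ± 4.47 and 121 ± 3.32 FPKM, and was not called. PAPPA itself stayed between 0.0450 and 0.0971 FPKM and was under the filter.

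At the IGF2 locus and among proteins that bind IGF2 mRNA, 3 of 6 tested genes were called, all lower, with a median of -0.28. IGF2BP2 was at 27.4, 27.2 and 29.4 FPKM in si-SCR and at 15.4 and 14.7 FPKM in si-circVAMP3. Both knock-down libraries stood far below the controls. IGF2BP2 fell by 0.87 (limma adjusted p = 0.00025) and IGF2BP3 by 0.33 (limma adjusted p = 0.0076). IGF2BP1 had a log2 fold change of -0.17 (limma adjusted p = 0.073). The antisense transcript IGF2-AS, counted by strand, fell by 0.29 (limma adjusted p = 0.006), from 14.2 ± 0.323 to 11.5 ± 0.195 FPKM (SD, 3 and 2 libraries), while IGF2 itself was not called. H19, the imprinted neighbour of IGF2, stayed between 0.194 and 0.503 FPKM and was under the filter.

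Of the other adaptors and phosphatases, 6 of 26 tested genes were called, 3 in each direction, with a median of 0.05. SOCS3, a feedback inhibitor that can bind the receptors, was at 2.13, 1.89 and 1.58 FPKM in si-SCR and at 4.36 and 4.83 FPKM in si-circVAMP3. The groups lay far apart. SOCS3 rose by 1.11 (limma adjusted p = 0.0012), SHC1, the adaptor toward RAS, by 0.55 (limma adjusted p = 0.0019) and GRB2, its partner, by 0.19 (limma adjusted p = 0.013). GRB10, an adaptor that restrains the receptors, fell by 0.48 (limma adjusted p = 0.0026), SOS2 by 0.28 (limma adjusted p = 0.018) and CRKL by 0.25 (limma adjusted p = 0.0063).

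Downstream of the IRS adaptors, 8 of 26 tested genes of PI3K, AKT and mTORC1 were called, 3 higher and 5 lower, with a median of -0.03. The kinase AKT1 was at 49.5, 51.3 and 50.2 FPKM in si-SCR and at 21.8 and 21.3 FPKM in si-circVAMP3. The libraries of each group were nearly equal and the groups far apart. AKT1 fell by 1.20 (SE 0.040; limma adjusted p = 4.4e-05), PIK3CA, the catalytic subunit of PI3K, by 0.57 (limma adjusted p = 0.0048), the translation inhibitor gene EIF4EBP1 by 0.47 (limma adjusted p = 0.0054) and AKT2 by 0.25 (limma adjusted p = 0.020). The regulatory subunit PIK3R1 had a log2 fold change of 0.03 (limma adjusted p = 0.72). PIK3R3, PIK3CB and GSK3A rose by 0.35, 0.32 and 0.25 (limma adjusted p = 0.028, 0.013 and 0.013).

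FOXO factors and genes that FOXO is known to induce, which AKT holds back, had 5 of 13 tested genes called, 2 higher and 3 lower, with a median of 0.06. TXNIP was at 15.0, 13.8 and 14.4 FPKM in si-SCR and at 36.0 and 32.8 FPKM in si-circVAMP3. Each knock-down library was far above the controls. TXNIP rose by 1.23 (limma adjusted p = 0.00013) and CITED2 by 0.30 (limma adjusted p = 0.015), while FOXO1, SESN1 and CDKN1B fell by 0.26, 0.24 and 0.24 (limma adjusted p = 0.024, 0.031 and 0.041). The call of CDKN1B was lost with limma without a trend (adjusted p = 0.067). In this tumour type reads of FOXO1 can also come from the fusion gene with PAX3.

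The sorting route that IGF2R serves held 8 called genes of 22 tested, 6 higher and 2 lower, with a median of 0.10. CTSD, a lysosomal protease carried by mannose 6-phosphate receptors, was at 21.7, 18.4 and 13.7 FPKM in si-SCR and at 30.7 and 33.4 FPKM in si-circVAMP3. The controls were uneven, yet all were below both knock-down libraries. CTSD rose by 0.84 (limma adjusted p = 0.013), and NAGPA and GNPTG, which help to make the mannose 6-phosphate tag, by 0.54 and 0.39 (limma adjusted p = 0.011 and 0.018). AP1B1, of the clathrin adaptor, rose by 0.29 (limma adjusted p = 0.014). The smaller mannose 6-phosphate receptor M6PR, named after its value was seen, rose by 0.26 (limma adjusted p = 0.0095). VPS29 of the retromer and the sorting receptor SORT1 fell by 0.34 and 0.15 (limma adjusted p = 0.0051 and 0.036), and the call of SORT1 was lost with limma without a trend (adjusted p = 0.074).

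Short matches to the siRNA were then counted, a description chosen after seeing the data. An mRNA that pairs with bases 2 to 8 of the siRNA strand opposite the target strand holds GTGGACA, and it is through these bases that small RNAs are known to pair with other transcripts. Of 11036 tested genes with an annotated 3′ UTR, 1274 held GTGGACA there, and 33.5% of these were called lower and 7.46% higher, with a median log2 fold change of -0.11. Among the 9762 genes without it the shares were 13.8% and 16.7%, with a median of 0.03. In the 146 genes that held it at least 2 times, 39.7% were called lower. The letters CGATGAT, which pair with the same bases of the target strand of the siRNA, were in 200 genes, of which 20.0% were called lower and 12.0% higher, against 16.0% and 15.7% of the genes without them. Genes with GTGGACA were more often called lower than genes without it in each class of 3′ UTR length: 36.1% against 11.5% under 1000 bases, 35.3% against 14.7% up to 3000 bases and 31.4% against 17.4% above. Over all alternatives but the fold rule, the share called lower was 17% to 39.3% with the letters and 5.07% to 18.2% without them, and it was higher with them in each.

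**Figure D4:**
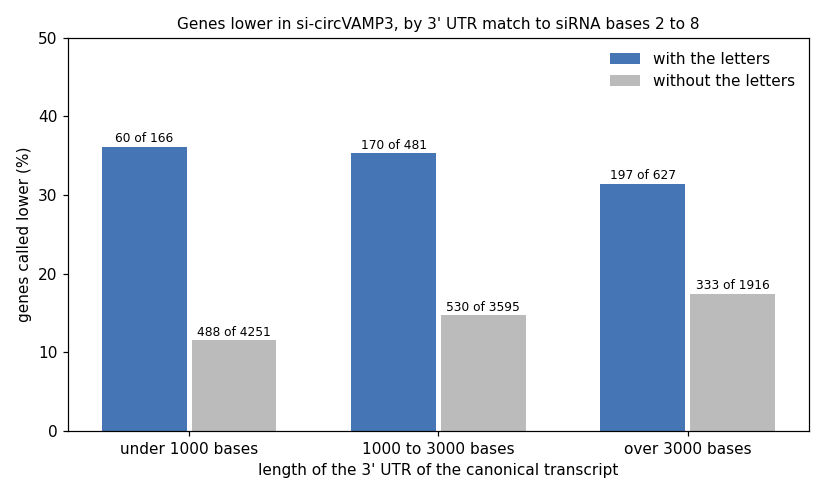
Share of genes called lower in si-circVAMP3 (vertical axis, %) with and without a 3′ UTR match to the siRNA, by length of the 3′ UTR (horizontal axis), with the number called of the number tested above each bar. The bars with a match stand at 31.4% to 36.1% and those without at 11.5% to 17.4%.

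In the IGF genes, 1 of the 7 tested held GTGGACA in its 3′ UTR, IGFBP5. CGATGAT was there 1 time in IGFBP5 and 1 time in IGF2R, which rose. Coding matches were more common: IRS1 held 3, and IGF2, IGF1R, IGFBP2 and IGFBP5 held 1 each, while IGF2R, INSR and IRS2 held none in their canonical transcripts. The matches of IRS1, which fell, and of IGF2 and IGF1R, which did not, are shown with 10 bases on either side and the letters in capitals. They lie on GRCh38 at chr2:226796639-226796645, chr2:226796200-226796206 and chr2:226795729-226795735 for IRS1, at chr11:2135406-2135412 for IGF2, at chr15:98924647-98924653 for IGF1R and at chr2:216674583-216674589 for IGFBP5.
IRS1 coding match 1: atggaaagctGTGGACAaacggggtag
IRS1 coding match 2: gcctcgaaagGTGGACAcagctgctca
IRS1 coding match 3: tcagagctacGTGGACAcctcgccagc
IGF2 coding match: cggggagctgGTGGACAccctccagtt
IGF1R coding match: ggaatgggtcGTGGACAgatcctgtgt
IGFBP5 3′ UTR match: ccttcgtgctGTGGACAcagctctctt
Among the 9788 tested genes with no match in the 3′ UTR, which here include 28 with no 3′ UTR of 7 bases or more, 11.1% of the 7685 with no coding match were called lower, 22.9% of the 1674 with 1, 29.0% of the 331 with 2 and 23.5% of the 98 with 3 or more. Unlike the 3′ UTR counts, these shares were not split by length. The part of coding length in them was not tested. Linear VAMP3, which fell, held 2 coding matches and none in its 3′ UTR. Of the 2, 1 lay within the exon 3 bases that the siRNA covers. AKT1 held 2 coding matches and none in its 3′ UTR, and PIK3CA and AKT2 held 1 each in the 3′ UTR. Of the 102 pathway genes, 16 held the letters in the 3′ UTR and 7 of these were called lower, among them IGF2BP2, GRB10, CRKL, EIF4EBP1 and IGFBPL1. The part of these matches in any single change, or in the IGF genes as a whole, was not tested, and other siRNAs against circVAMP3 were not analysed here.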

How the data were processed

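The deposited FPKM values of 5 libraries were made by the authors, who cut and cleaned reads with Trimmomatic, aligned them with STAR 2.5.2b to GRCh38 with Ensembl 99, counted them by strand with htseq-count (intersection-strict) and converted counts with the rpkm function of edgeR. The table held 13822 genes, and 13783 identifiers matched a symbol. From here limma 3.58.1 in R 4.3.3 was run with a trend on log2(FPKM + 0.5), for genes with at least 0.5 FPKM in at least 2 libraries, with Benjamini-Hochberg adjustment over all genes tested and a call at an adjusted p under 0.05. Fold changes are on that scale, which understates the change of low genes. The fit was tested on simulated data. Whole reads were recovered from repeated FPKM ratios for 100% of genes (tolerance 0.001), as the smallest whole numbers in the ratio, so a gene could be short by a common factor. Limma voom on these reads, added after seeing the data, called 4145 genes.

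Named genes were every IGF gene, VAMP3, up to 4 called genes per direction with the largest change in each list, AKT1, AKT2, PIK3CA and PIK3R1, and the 3 genes nearest in profile to IGF2 and to the IGF gene with the smallest p. Some markers that were not called or not tested were also named, to describe the cells. STC2, PAPPA, IGF2BP1, H19 and M6PR were named after their values were seen. A gene planned to be named is not reported here. The IGF genes and lists were chosen with earlier results of these data known. Positions, exons and 3′ UTRs came from GENCODE on GRCh38, the build of the files though a later annotation, and promoters from RefSeq. Replicate numbers were not treated as pairs in the main fit, and whether they pair the samples is not known. p-values measure the spread between these 5 libraries.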

Additional observations from a re-analysis of the deposited data

How the results depend on the processing

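The number of genes called in si-circVAMP3 minus si-SCR was 467 with an absolute log2 fold change over 0.58, and 1254 to 4018 when each library was left out, with 2203 without si-SCR replicate 2, 1286 without si-circVAMP3 replicate 1 and 1254 without si-circVAMP3 replicate 2. The IGF genes called were 0 with that fold rule and 1 to 3 when a library was left out. The pathway genes called were 7 and 10 to 37, and the ratios with groups apart 3 to 4. Leaving out a si-circVAMP3 library leaves 1 sample in that arm, assumed to vary like the controls. Leaving out each library, the log2 fold change ranged from -0.17 to 0.073 for IGF2, 0.21 to 0.24 for IGF1R, 0.17 to 0.23 for IGF2R, -0.54 to -0.42 for IRS1, -0.080 to 0.041 for IGFBP2, -0.89 to -0.27 for IGFBP5, -0.053 to 0.083 for IRS2, -0.16 to 0.063 for NAIF1, -0.16 to 0.11 for QDPR and -0.18 to 0.021 for CD83. The log2 ratio difference ranged from -0.070 to 0.0042 for INSR to IGF1R, which was 0.017 with quantile normalization, and from -0.041 to 0.010 for IGF2R to IGF1R.

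Replicate numbers are shared by 4 libraries. Residuals of same-numbered libraries correlated at -0.15 and -0.03. The residuals of the si-circVAMP3 libraries mirror each other once the group mean is removed. This check therefore cannot decide whether the samples were paired. With the replicate as a block on these 4 libraries 3055 genes were called by limma, against 4018 without the block. IGF2R was then at 0.17 (limma adjusted p = 0.057, and 0.027 on the same libraries without the block). IGFBP5 was at -0.57 (limma adjusted p = 0.026, and 0.087 on the same libraries without the block). With the block the limma adjusted p was 0.079 for SESN1 and 0.089 for SORT1, and without it on these libraries 0.043 and 0.048. IGF2R was at 0.21 with limma without a trend (adjusted p = 0.053). IGFBP5 was at -0.96 with voom on recovered reads, where it was called and also passed the fold rule. IGF1R and IRS1 were called in each alternative other than the fold rule and leaving out a si-circVAMP3 library. The cause of these changes was not tested.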
